A study of Homo sapiens with 10 samples.

Results

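The collagen genes were examined in human embryonic stem cells as the rows of the count table whose GENCODE symbol is COL, digits, A and digits and whose biotype is protein coding. The rule named 44 genes among 55841, without using any measured value. RNA was sequenced from cells that the labels name HES9, grown in mTESR1 on matrigel, and the study's text gives the cells of its transcriptome work as WA09, a difference not resolved here. The general population was not sorted, and HHH was the fraction sorted for high levels of EPCAM, GCTM2 and CD9 at the cell surface. Batch 1 held general replicates 1 and 2 and HHH replicates 2 and 3, and batch 2 held replicates 1, 2 and 3 of each population, so that each population had 5 libraries. The text of the deposit mentions protein kinase C inhibitors, and the label of no library names a treatment. All cells came from 1 line, HHH is part of the general population, and nothing in the labels says that replicates were separate cultures, so p-values measure the spread between these libraries, which may be technical.

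Collagens are proteins of the extracellular matrix made of 3 chains wound into a triple helix, and each chain has a gene of its own. Fibrillar collagens build the fibrils of connective tissue, collagen IV forms the mesh of basement membranes, and other classes decorate fibrils, anchor epithelia or cross the cell membrane. Pluripotent stem cells grow as an epithelial sheet that rests on a matrix rich in collagen IV and laminin, here supplied by matrigel.

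The libraries held 47242595 to 78503395 counts. Levels are given as CPM, the count relative to the library total after TMM scaling. In this unit 1 count was worth 0.0153 to 0.0229 CPM, and the floor of 3 counts stood at 0.0460 to 0.0687 CPM, which covers counting error only. Of 7 pluripotency markers 2 were higher in HHH, EPCAM and NANOG, and SOX2 was lower, beside 1.94% higher and 3.89% lower of all genes tested. EPCAM and CD9, among the 7, are antigens that HHH was sorted on. POU5F1 was at 470 to 542 CPM in the general libraries, EPCAM was higher in HHH by a log2 fold change of 0.41 (SE 0.08, with edgeR adjusted p = 0.00645), and CD9 had a log2 fold change of 0.29 (SE 0.12, with edgeR adjusted p = 0.195).

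Collagen RNA was a small share of each library and was spread over most of the family. The 44 genes together took 0.0822% to 0.190% of all counts of a library. Their summed level was 1186 and 1151 CPM in the general libraries of batch 1 against 984 and 1236 CPM in HHH. In batch 2 it was 1593, 1558 and 1607 CPM in the general libraries against 1280, 1334 and 1071 CPM in HHH. The HHH libraries of batch 2 all lay below the general ones, and those of batch 1 lay on either side of them.

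A mean of at least 1 CPM in both populations was reached by 33 genes, and COL5A3 and COL10A1 reached it in the general population alone. The remaining 9 were below 1 CPM in both populations. These were COL3A1, COL19A1, COL8A1, COL6A5, COL15A1, COL6A6, COL20A1, COL4A3 and COL28A1. COL3A1, which makes the fibrils of skin and vessel walls, had at most 8 counts in any library, and COL19A1 at most 3. COL8A1 stood at 6 to 24 counts and COL6A5 at 4 to 11, and these 4 did not pass the filter on low counts, so that 40 genes were tested. COL28A1 reached 1.13 and 1.14 CPM in 2 general libraries of batch 2 and stayed at or below 0.967 CPM elsewhere.

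**Figure D1:**
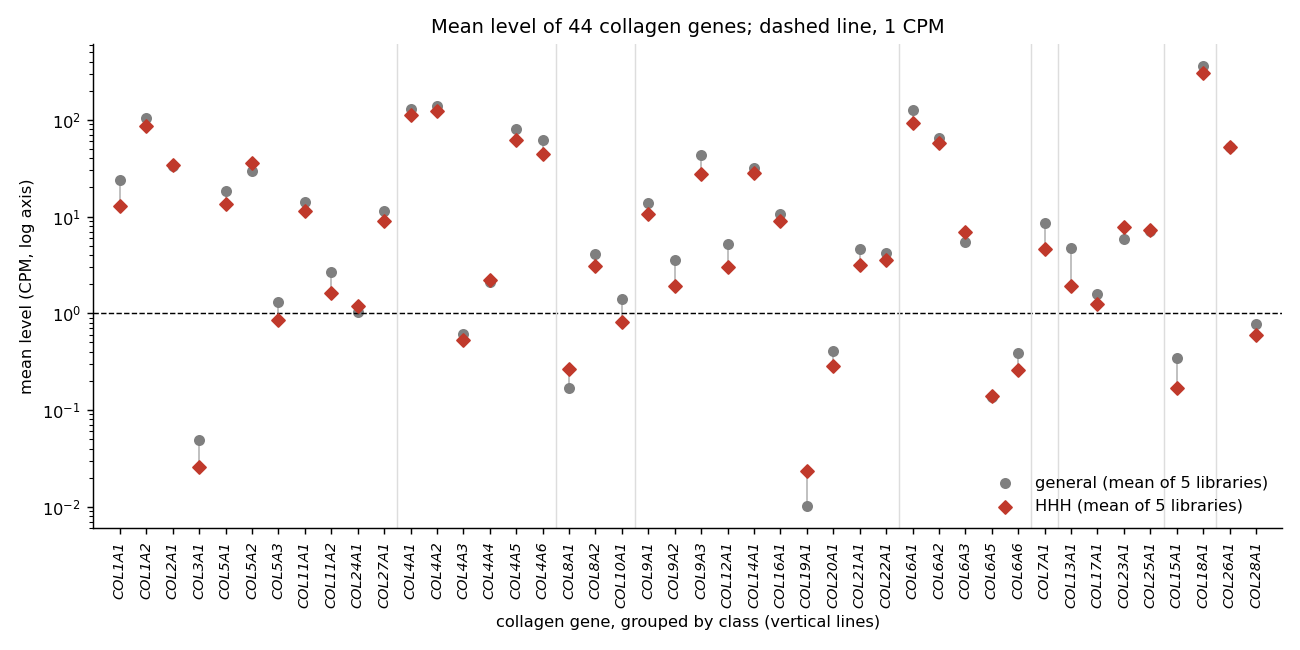
Mean level of the 44 collagen genes in CPM on a log axis, with a circle for the mean of the 5 general libraries and a diamond for the mean of the 5 HHH libraries, ordered by class. The dashed line is at 1 CPM, with 9 genes below it in both populations, and COL18A1 is the highest at 360 CPM in the general libraries and 306 CPM in HHH.

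Levels of different genes were compared per kilobase of annotated exon (RPKM), as the mean and SD of all 10 libraries. COL18A1, the chain of the basement membrane collagen that carries endostatin, led the multiplexins and the whole family at 39.3 ± 7.01 RPKM. COL6A1, of the beaded filaments, followed at 19.8 ± 4.53 RPKM, and COL26A1 at 16.9 ± 2.64 RPKM. Within their classes COL1A2 led the fibrillar collagens at 8.86 ± 1.27 RPKM, COL4A1 the basement membrane network at 8.22 ± 1.51 RPKM, ahead of COL4A2 at 6.85 ± 1.52 RPKM, and COL9A3 the fibril-associated collagens at 7.31 ± 2.56 RPKM. The highest transmembrane collagen, COL23A1, was at 1.57 ± 0.68 RPKM and the highest short-chain collagen, COL8A2, at 0.775 ± 0.288 RPKM, an order whose neighbours overlap within 1 SD, as those of COL1A2, COL4A1 and COL9A3 do. In the deposited RPKM values COL4A2 led COL4A1, at 15.7 against 14.7 RPKM, and both stood above COL1A2. COL18A1 shares 18.5% of its exonic bases with SLC19A1, and the counting of overlaps was not stated, so its level is uncertain.

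Compared over both batches, 13 of the 40 collagen genes tested were lower in HHH at an adjusted p under 0.05 and 0 were higher. Of all 23552 genes tested, 5.83% passed by the same rule, 3.89% lower and 1.94% higher. The log2 fold change was below 0 in 34 of the 40, against 47% of all genes. The median log2 fold change was -0.34 over the 40 collagen genes and 0.02 over all genes. The test was the quasi-likelihood F test of edgeR on counts with batch as an additive term, adjusted over all tested genes, and a log2 fold change is HHH against general throughout. With the study's further limit of a fold over 1.5, 8 of the 13 were lower, beside 2.34% of all genes. In bulk RNA, fewer cells of a type and less RNA per cell cannot be told apart.

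The 13 genes fell into 7 of the 9 classes used here. Of the genes tested, 2 of 10 fibrillar, 2 of 6 basement membrane network, 1 of 2 short-chain, 5 of 9 fibril-associated, 1 of 4 beaded filament and 1 of 4 transmembrane collagens were lower, as was the only anchoring fibril collagen. None of the 2 multiplexins and none of the 2 genes of other kinds passed over both batches. In 12 of the 40 genes every HHH library was below every general library of its batch, against 5.42% of all genes tested, and 11 of these 12 were among the 13, the other being COL6A6. HHH lay above every general library of its batch in 0 collagen genes, against 3.93% of all genes.

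**Figure D2:**
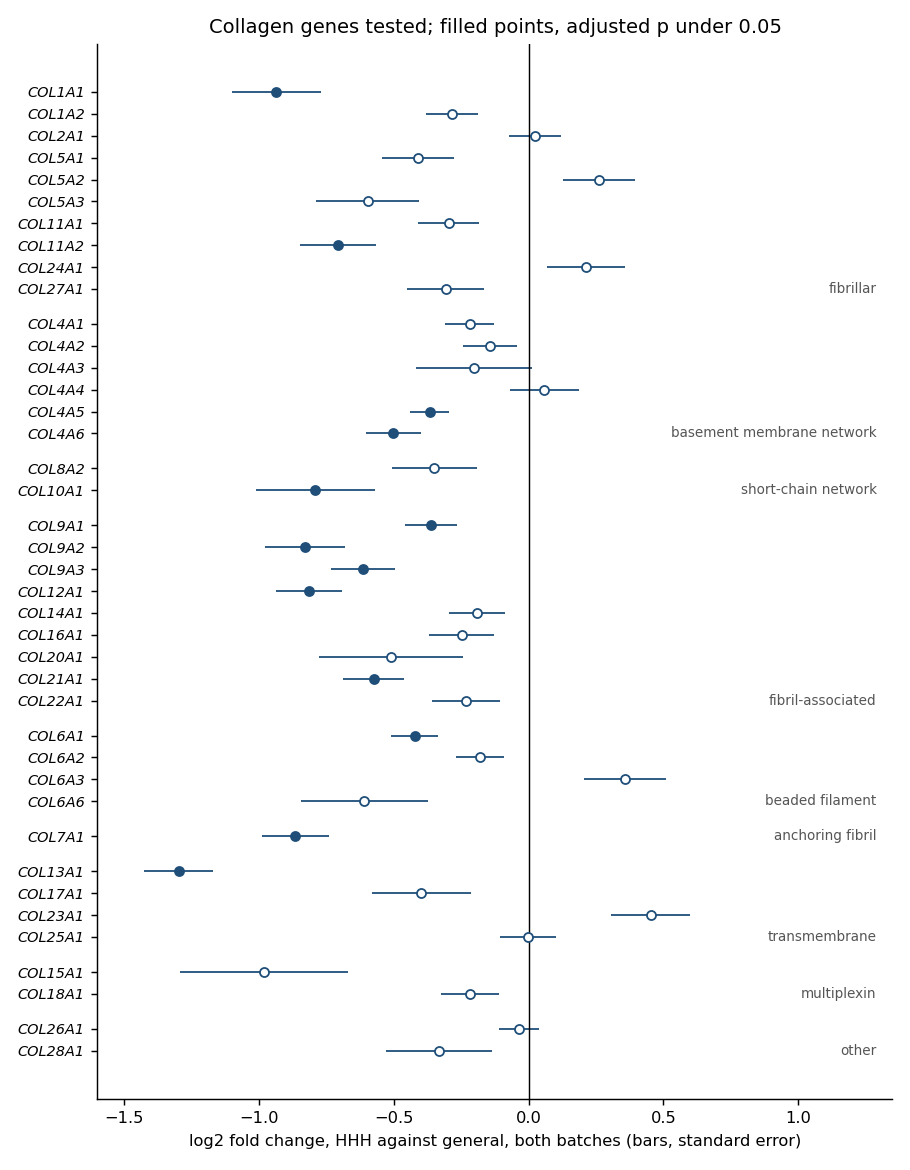
Log2 fold change of HHH against general over both batches for the 40 collagen genes tested, grouped by class, with bars for the standard error and filled points for an adjusted p under 0.05. All 13 filled points lie to the left of 0, from -1.30 for COL13A1 to -0.36 for COL9A1.

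The largest change belonged to COL13A1, a collagen that crosses the cell membrane and sits at sites where cells adhere to matrix. It was at 3.68 and 3.29 CPM in the general libraries of batch 1 and at 1.78 and 1.65 CPM in HHH. In batch 2 it was at 5.14, 6.18 and 5.49 CPM in the general libraries and at 2.06, 2.25 and 1.77 CPM in HHH. No HHH library reached any general library, also across batches. The log2 fold change was -1.30 (SE 0.13, with edgeR adjusted p = 2.27e-05), a level 2.46-fold lower, and COL13A1 was 1 of 3 collagen genes that passed in batch 1 and in batch 2.

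The bases before the start of COL13A1 are shown because it changed most. They are 250 bases of the RefSeq table for GRCh38.p14, chr10:69801656-69801905 on the plus strand. Capitals mark a TATAAA match.

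COL13A1: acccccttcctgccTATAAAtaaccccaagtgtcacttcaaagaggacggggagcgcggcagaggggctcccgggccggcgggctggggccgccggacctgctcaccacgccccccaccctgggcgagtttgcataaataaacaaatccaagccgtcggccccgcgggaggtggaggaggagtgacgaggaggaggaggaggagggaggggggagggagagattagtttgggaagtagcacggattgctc

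The windows were searched on both strands for the TATA box letters TATAAA, the CCAAT box letters CCAAT and the GC box letters GGGCGG. Of all 35116 windows of the same length, 10.7% hold a TATA box, 32% a CCAAT box and 42.6% a GC box. The COL13A1 window holds 1 match, 236 bases before the start. Windows were listed for 32 of the 44 collagen genes, as 44 windows, of which 8 hold a TATA box, 12 a CCAAT box and 24 a GC box.

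The other transmembrane collagens did not pass. COL23A1, at 2.93 and 3.25 CPM in the general libraries of batch 1 and 7.69, 7.46 and 7.79 CPM in those of batch 2, was at 3.17 and 6.07 CPM and at 10.1, 11.4 and 8.34 CPM in HHH. Its log2 fold change was 0.45 (SE 0.15, with edgeR adjusted p = 0.0881), the most positive of the family, with HHH above every general library of the batch in 4 of 5 libraries. COL17A1, the hemidesmosome collagen of epithelia, had a log2 fold change of -0.40 (SE 0.18, with edgeR adjusted p = 0.231) and COL25A1 one of -0.0018 (SE 0.10, with edgeR adjusted p = 0.995).

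COL7A1, the only chain of the anchoring fibrils that tie epithelia to the tissue beneath them, was lower in HHH. Its level was 5.30 and 5.06 CPM in general against 3.04 and 3.57 CPM in HHH in batch 1. The values in batch 2 were 10.9, 8.93 and 12.9 CPM against 5.20, 6.29 and 4.93 CPM. HHH was below general in both batches without overlap, and the log2 fold change was -0.87 (SE 0.12, with edgeR adjusted p = 0.000697).

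Among the fibrillar collagens COL1A1 and COL11A2 were lower. COL1A1, the more abundant chain of the collagen I heterotrimer in connective tissue, stood at 21.3 and 19.7 CPM in general and 18.5 and 14.1 CPM in HHH in batch 1. In batch 2 it stood at 24.5, 25.9 and 29.4 CPM in general and 11.7, 10.8 and 9.05 CPM in HHH. The libraries separated in both batches, more widely in batch 2, and the log2 fold change over both was -0.94 (SE 0.16, with edgeR adjusted p = 0.00334). COL1A2, the partner chain, had 103 and 95.7 CPM in general against 84.6 and 105 CPM in HHH in batch 1. In batch 2 it had 111, 112 and 104 CPM against 85.1, 89.2 and 68.8 CPM. The populations overlapped in batch 1 only, and the log2 fold change was -0.28 (SE 0.10, with edgeR adjusted p = 0.106).

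COL11A2, a chain of the minor fibrillar collagen XI of cartilage, was at low levels in every library. It measured 1.73 and 1.39 CPM in general and 0.922 and 1.14 CPM in HHH in batch 1, and 3.42, 3.00 and 3.90 CPM against 2.40, 1.87 and 1.8 CPM in batch 2. HHH lay below general in both batches, with a log2 fold change of -0.71 (SE 0.14, with edgeR adjusted p = 0.00759). Its partner COL11A1 had a log2 fold change of -0.30 (SE 0.11, with edgeR adjusted p = 0.152). COL2A1, the main collagen of cartilage, was at 35.0 and 45.2 CPM in general and 41.2 and 46.8 CPM in HHH in batch 1, with a log2 fold change over both batches of 0.02 (SE 0.10, with edgeR adjusted p = 0.915). COL5A2 and COL24A1 had positive log2 fold changes of 0.26 (SE 0.13) and 0.21 (SE 0.15), with edgeR adjusted p of 0.286 and 0.433.

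In the basement membrane network the pair COL4A5 and COL4A6 was lower, and the abundant pair COL4A1 and COL4A2 did not pass. Each pair lies head to head on 1 chromosome, with 379 bases between the starts of COL4A5 and COL4A6 and 126 between those of COL4A1 and COL4A2 in the RefSeq windows. The bases before these starts are shown because the genes of each pair share them. They are chrX:108439588-108439837 on the plus strand for COL4A5, chrX:108439459-108439708 on the minus strand for the nearer of the listed starts of COL4A6, and chr13:110307158-110307283 on the minus strand for all bases between COL4A1 and COL4A2, in GRCh38.p14. Capitals mark a CCAAT box or a GC box on either strand.

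COL4A5: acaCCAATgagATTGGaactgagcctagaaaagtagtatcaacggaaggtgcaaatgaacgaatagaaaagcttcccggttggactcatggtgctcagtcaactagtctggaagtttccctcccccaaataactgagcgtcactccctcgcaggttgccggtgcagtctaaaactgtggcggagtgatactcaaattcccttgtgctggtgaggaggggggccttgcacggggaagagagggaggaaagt
COL4A6: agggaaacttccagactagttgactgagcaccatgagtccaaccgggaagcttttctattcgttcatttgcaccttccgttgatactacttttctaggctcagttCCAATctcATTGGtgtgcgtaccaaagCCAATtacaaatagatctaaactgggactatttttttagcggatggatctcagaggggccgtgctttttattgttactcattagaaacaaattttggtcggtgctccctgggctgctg
COL4A1: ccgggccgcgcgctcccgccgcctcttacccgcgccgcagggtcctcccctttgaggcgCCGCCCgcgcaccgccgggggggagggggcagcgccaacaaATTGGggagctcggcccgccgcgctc

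The COL4A5 window holds 2 CCAAT boxes and the COL4A6 window 3, of which the 2 farthest from its start are those of COL4A5 read from the other strand. The stretch between COL4A1 and COL4A2 holds 1 CCAAT box and 1 GC box, both on the other strand. The matches did not overlap.

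COL4A5 was at 70.4 and 63.7 CPM in general and 47.9 and 58.0 CPM in HHH in batch 1, and at 93.3, 82.7 and 91.1 CPM against 67.7, 70.9 and 66.3 CPM in batch 2. COL4A6 was at 65.1 and 50.8 CPM against 31.6 and 48.3 CPM, and at 64.6, 65.7 and 64.8 CPM against 45.6, 49.7 and 44.7 CPM. Both genes had HHH below general in both batches. The log2 fold changes were -0.37 (SE 0.07, with edgeR adjusted p = 0.0071) for COL4A5 and -0.50 (SE 0.10, with edgeR adjusted p = 0.009) for COL4A6. For COL4A1 and COL4A2, the chains of nearly all basement membranes, they were -0.22 (SE 0.09, with edgeR adjusted p = 0.183) and -0.14 (SE 0.10, with edgeR adjusted p = 0.45). COL4A3 and COL4A4, the partners of COL4A5 in the kidney glomerulus, had -0.20 (SE 0.21) and 0.06 (SE 0.13), with edgeR adjusted p of 0.63 and 0.835.

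The fibril-associated collagens held the most calls, 5 of 9, with negative log2 fold changes in all 9 and a class median of -0.51. All 3 chains of collagen IX, which coats the collagen II fibrils of cartilage, were lower. COL9A3 was at 31.1 and 29.4 CPM in general and 22.6 and 28.1 CPM in HHH in batch 1, and at 48.9, 45.5 and 61.8 CPM against 28.8, 29.6 and 28.2 CPM in batch 2. COL9A2 was at 2.27 and 2.21 CPM against 1.41 and 1.92 CPM, and at 4.39, 4.32 and 4.54 CPM against 2.32, 2.23 and 1.77 CPM. Both separated the populations in both batches, with log2 fold changes of -0.62 (SE 0.12, with edgeR adjusted p = 0.00619) for COL9A3 and -0.83 (SE 0.15, with edgeR adjusted p = 0.00354) for COL9A2. COL9A1 was at 9.36 and 10.8 CPM in general and 7.82 and 10.1 CPM in HHH in batch 1, and at 16.8, 15.6 and 16.6 CPM against 12.0, 11.8 and 11.2 CPM in batch 2. Its populations overlapped in batch 1, and the log2 fold change was -0.36 (SE 0.10, with edgeR adjusted p = 0.0383). COL9A3 shares 3.2% of its exonic bases with another gene.

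COL12A1, which binds collagen I fibrils, was at 2.5 and 1.68 CPM in general and 1.14 and 1.01 CPM in HHH in batch 1, and at 7.87, 6.85 and 6.94 CPM against 4.29, 4.46 and 4.14 CPM in batch 2. COL21A1, a smaller member of the class, was at 4.86 and 3.99 CPM against 2.79 and 2.45 CPM, and at 5.26, 4.32 and 4.75 CPM against 3.5, 3.29 and 3.62 CPM. In neither gene did the populations overlap in a batch. The log2 fold changes were -0.82 (SE 0.12, with edgeR adjusted p = 0.000961) for COL12A1 and -0.57 (SE 0.11, with edgeR adjusted p = 0.00702) for COL21A1. COL14A1, the other abundant gene of the class at 31.5 CPM in general and 28.2 CPM in HHH on average, had -0.19 (SE 0.10, with edgeR adjusted p = 0.311).

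Of collagen VI, whose beaded filaments surround most cells, COL6A1 alone passed. It was at 105 and 94.7 CPM in general and 79.7 and 90.0 CPM in HHH in batch 1, and at 141, 142 and 148 CPM against 106, 104 and 84.9 CPM in batch 2. HHH was below general in both batches, with a log2 fold change of -0.42 (SE 0.09, with edgeR adjusted p = 0.00901). The partner chains COL6A2 and COL6A3 had -0.18 (SE 0.09, with edgeR adjusted p = 0.27) and 0.36 (SE 0.15, with edgeR adjusted p = 0.203). COL10A1, the collagen of hypertrophic cartilage, was at 1.67 and 0.688 CPM in general and 0.815 and 0.687 CPM in HHH in batch 1, and at 1.74, 1.32 and 1.63 CPM against 0.859, 0.692 and 1.01 CPM in batch 2. The populations overlapped in batch 1, and the log2 fold change was -0.79 (SE 0.22, with edgeR adjusted p = 0.0491).

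**Figure D3:**
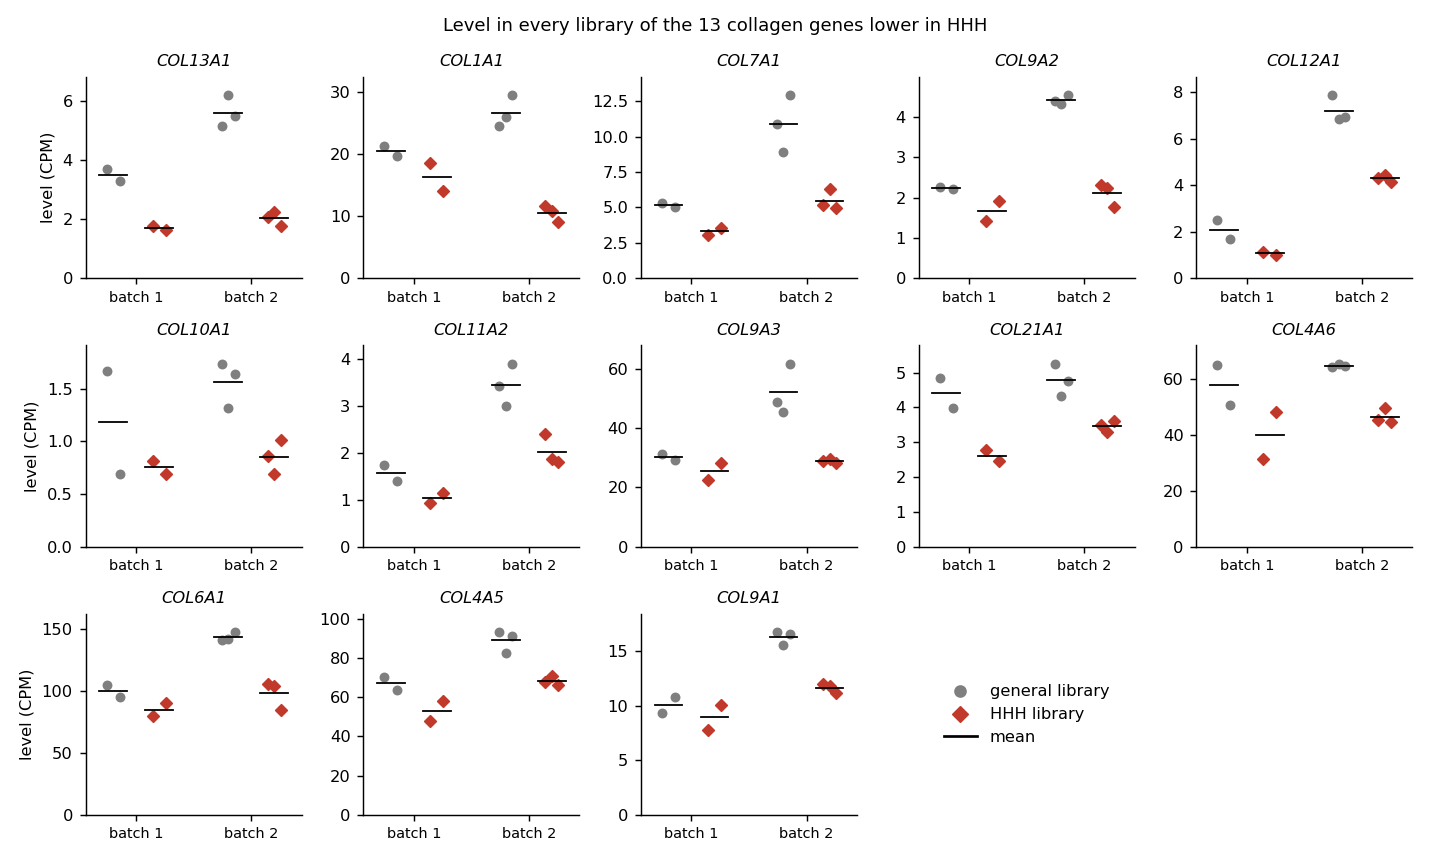
Level in CPM, on axes from 0, of the 13 collagen genes lower in HHH, with a point for each library and a bar for the mean, general in circles and HHH in diamonds, by batch. In 11 of the 13 every HHH library lies below every general library of its batch, and the exceptions are COL10A1 and COL9A1 in batch 1.

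The calls differed in how far they rested on single libraries. With each of the 10 libraries left out in turn, 11 of the 13 genes passed every time. COL10A1 passed only without general replicate 2 of batch 1, and its edgeR adjusted p reached 0.137 without another library. COL9A1 passed only without general replicate 1 or HHH replicate 3 of batch 1, and its edgeR adjusted p reached 0.115. With the replicate number as a block, COL10A1 did not pass (edgeR adjusted p = 0.101), and COL1A2, COL5A1 and COL11A1 did (edgeR adjusted p = 0.0281, 0.0145 and 0.0452), also lower. In that fit general replicate 1 and HHH replicate 3 of batch 1 were alone in their blocks and did not inform the comparison. Without a batch term COL13A1 alone passed.

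Taken batch by batch, 3 collagen genes passed in batch 1, COL12A1, COL21A1 and COL13A1, and 18 in batch 2, all lower in HHH. Of all genes 2.14% passed in batch 1, 1.02% lower and 1.12% higher, and 9.47% passed in batch 2, 5.65% lower and 3.83% higher. With the limit of a fold over 1.5 there were 3 collagen genes in batch 1, against 0.887% of all genes, and 9 in batch 2, against 3.1%. The log2 fold change was below 0 in 27 of the 40 in batch 1, against 48.9% of all genes, and in 34 in batch 2, against 49.5%. In batch 1 the log2 fold changes were -0.96 (SE 0.21, with edgeR adjusted p = 0.03) for COL12A1, -0.76 (SE 0.17, with edgeR adjusted p = 0.0335) for COL21A1 and -1.02 (SE 0.18, with edgeR adjusted p = 0.00965) for COL13A1. Without general replicate 1 of batch 1 none of the 3 passed, without general replicate 3 of batch 2, HHH replicate 2 of batch 1 or HHH replicate 3 of batch 1 COL13A1 did and the other 2 did not, without HHH replicate 1 or 2 of batch 2 COL21A1 did not, and a fit of batch 1 alone called 0. All HHH libraries lay below all general ones in 13 of 40 genes in batch 1 and in 27 of 40 in batch 2, against 21% and 18.2% of all genes.

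The 18 genes of batch 2 were 12 of the 13 above, without COL10A1, and 6 more. COL5A1, the regulatory chain of collagen V in fibril assembly, was at 21.9, 20.1 and 23.5 CPM in general and 14.0, 15.0 and 11.5 CPM in HHH, and at 12.2 and 14.3 CPM against 12.0 and 14.9 CPM in batch 1. Its log2 fold change was -0.69 (SE 0.12, with edgeR adjusted p = 0.00303) in batch 2 and 0.02 (SE 0.15) in batch 1. COL15A1, a basement membrane multiplexin near the floor, was at 0.365, 0.509 and 0.6 CPM in general and 0.172, 0.19 and 0.212 CPM in HHH. Its log2 fold change was -1.35 (SE 0.32, with edgeR adjusted p = 0.0184) in batch 2, and its libraries held 4 to 36 counts over the series.

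COL18A1, the most abundant member, was at 398, 405 and 425 CPM in the general libraries of batch 2 and 311, 339 and 271 CPM in HHH, and at 289 and 285 CPM against 261 and 346 CPM in batch 1. Its log2 fold change in batch 2 was -0.41 (SE 0.11, with edgeR adjusted p = 0.033). COL8A2, a network collagen of the cornea, had -0.58 (SE 0.17, with edgeR adjusted p = 0.0461), COL16A1, of the fibril-associated class, -0.48 (SE 0.12, with edgeR adjusted p = 0.0268), and COL1A2 -0.42 (SE 0.11, with edgeR adjusted p = 0.0252). With the trend in GC content removed, COL8A2, COL16A1 and COL18A1 did not pass in batch 2 (edgeR adjusted p = 0.156, 0.131 and 0.333), nor did COL11A2 and COL4A6 (edgeR adjusted p = 0.0595 and 0.0814). In all 6 the HHH libraries of batch 2 were below the general ones, and in batch 1 they were not.

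Higher genes appeared in some fits of batch 2. COL23A1 and COL5A2 were higher in batch 2 alone with the replicate block (edgeR adjusted p = 0.046 and 0.0489), where 22 others were lower, and without a filter. The share of all genes that passed in these fits is not given here. COL23A1 was also higher with the GC trend removed (edgeR adjusted p = 0.0288). Of the 18 calls, 8 held with every library left out in turn, those of COL1A1, COL5A1, COL9A2, COL9A3, COL12A1, COL6A1, COL7A1 and COL13A1. The count fell to 8 without general replicate 3 of batch 2, to 9 without HHH replicate 3, to 10 without general replicate 1 and to 11 without HHH replicate 1.

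Whether the change differed between the batches was tested as an interaction, and COL1A1 alone passed among 40, beside 0.777% of all genes, of which 0.722% had a lower and 0.0552% a higher change in batch 2. All of the 0.722% differed by a fold over 1.5, as COL1A1 did. Its log2 fold change was -0.33 (SE 0.15, with edgeR adjusted p = 0.277) in batch 1 and -1.34 (SE 0.12, with edgeR adjusted p = 1.17e-05) in batch 2, a difference of -1.01 (SE 0.19, with edgeR adjusted p = 0.0315). It passed without HHH replicate 3 of batch 1, HHH replicate 1 of batch 2 or general replicate 1 of batch 2, and did not pass without any other library (edgeR adjusted p up to 0.117) or with the trend in GC content removed (edgeR adjusted p = 0.212). The difference between batches was negative in 32 of 40 collagen genes, beside 50.5% of all genes, and for genes other than COL1A1 it did not pass.

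**Figure D4:**
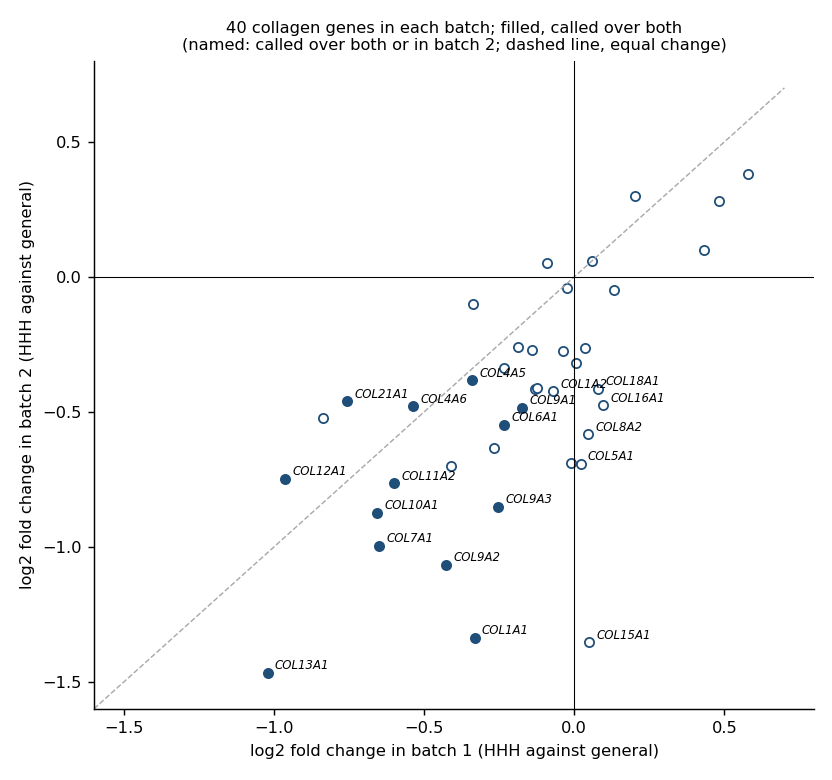
Log2 fold change of HHH against general in batch 1 (horizontal) and in batch 2 (vertical) for the 40 collagen genes tested, with filled points for the 13 called over both batches and a dashed line of equal change. COL1A1 lies at -0.33 and -1.34, and COL5A1, COL8A2, COL15A1, COL16A1 and COL18A1 lie near 0 in batch 1 and below -0.4 in batch 2.

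Chains that assemble into 1 collagen were set beside each other as ratios per kilobase, given as a description without a test. The size of a ratio depends on the annotated exon lengths, and the deposited RPKM values place COL4A2 above COL4A1. The ratio of COL1A1 to COL1A2 was 0.248 in both general libraries of batch 1 and 0.263 and 0.161 in HHH. In batch 2 it was 0.266, 0.278 and 0.341 in general and 0.165, 0.146 and 0.158 in HHH. The ratio was thus lower in HHH in batch 2 and overlapped in batch 1. COL6A1 to COL6A2 ran from 1.75 to 2.03 in the general libraries and from 1.49 to 1.70 in HHH, without overlap in either batch. COL11A2 to COL11A1 ran from 0.177 to 0.201 in general and from 0.133 to 0.171 in HHH in batch 1, and from 0.235 to 0.275 against 0.169 to 0.220 in batch 2. COL5A1 to COL5A2 ran from 0.378 to 0.583 in general and from 0.216 to 0.243 in HHH in batch 2, and overlapped in batch 1. COL4A1 to COL4A2 ran from 1.34 to 1.39 in general and from 1.16 to 1.27 in HHH in batch 1, and overlapped in batch 2. COL9A1 to COL9A3 was the ratio higher in HHH, from 0.186 to 0.195 against 0.126 to 0.161 in general in batch 2, and it overlapped in batch 1. COL9A2 to COL9A3 ran from 0.0837 to 0.0865 in general and from 0.0718 to 0.0786 in HHH in batch 1, and overlapped in batch 2. For COL4A5 to COL4A6 the HHH and general libraries overlapped in both batches.

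**Figure D5:**
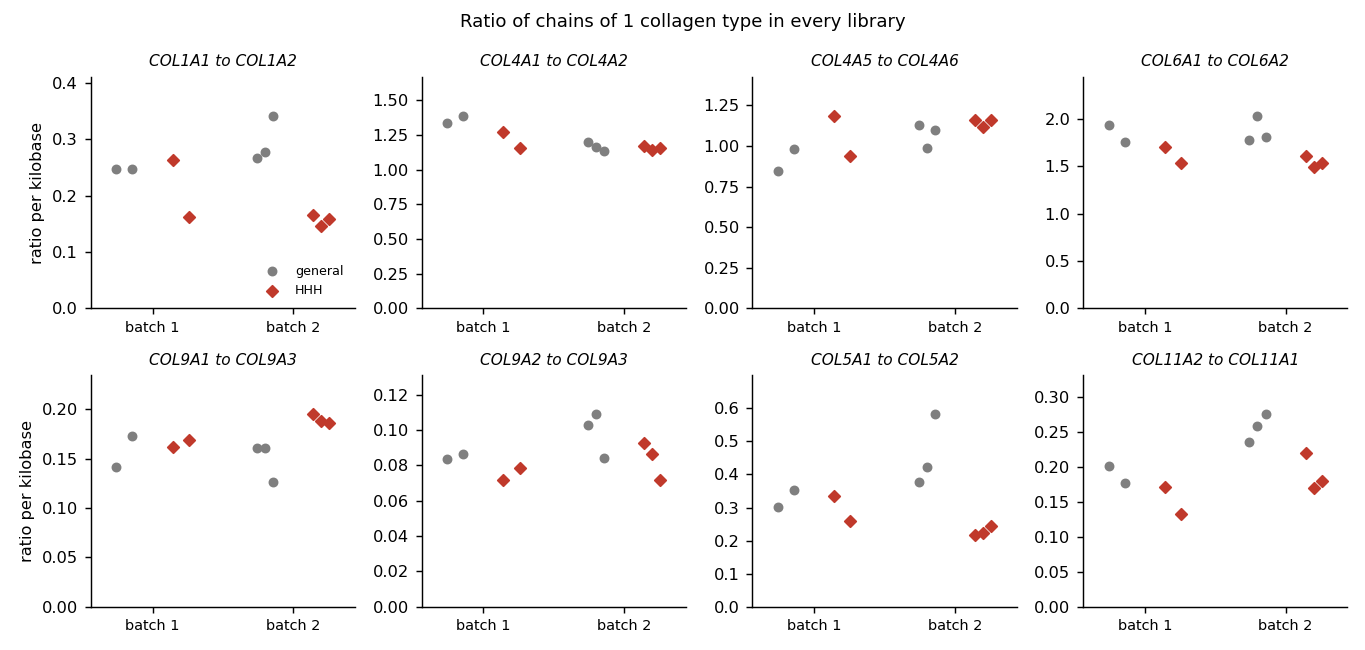
Ratio per kilobase of annotated exon of chains that assemble into 1 collagen type, with a point for each library, general in circles and HHH in diamonds, by batch, on axes from 0. COL6A1 to COL6A2 is at 1.75 to 2.03 in general and 1.49 to 1.70 in HHH.

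The genes that make, bind and degrade collagen were read from the same fit. Of 32 biosynthesis genes tested, 4 were lower in HHH and 0 higher over both batches, beside 3.89% lower and 1.94% higher of all genes, with a median log2 fold change of -0.000928. Within batch 1, 1 was lower and 0 higher, beside 1.02% and 1.12% of all genes. Within batch 2, 3 were lower and 1 higher, beside 5.65% and 3.83%. ADAMTS2, the protease that removes the amino-terminal propeptide of procollagen, had 3.52 and 3.35 CPM in general and 2.51 and 2.95 CPM in HHH in batch 1, and 9.06, 8.14 and 9.04 CPM against 4.36, 4.31 and 3.59 CPM in batch 2. HHH was below general in both, with a log2 fold change of -0.82 (SE 0.14, with edgeR adjusted p = 0.00283). BMP1, which removes the carboxy-terminal propeptide, had -0.56 (SE 0.12, with edgeR adjusted p = 0.00973), P3H2, a prolyl 3-hydroxylase, -0.47 (SE 0.11, with edgeR adjusted p = 0.024), and LOXL2, a crosslinking lysyl oxidase, -0.38 (SE 0.09, with edgeR adjusted p = 0.0293). P3H2 did not pass with the replicate block or without HHH replicate 2 of batch 1, and LOXL2 passed in 3 of the 10 fits that leave out 1 library. PPIB, a prolyl isomerase of the endoplasmic reticulum and the most abundant of the list at 53.1 RPKM, had 0.26 (SE 0.09, with edgeR adjusted p = 0.101). The count was 7 without general replicate 2 of batch 1, of which PPIB was higher.

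Of 8 collagen receptors tested, DDR1, a receptor tyrosine kinase activated by collagen, was lower and 0 were higher, beside the same 3.89% and 1.94%. It was at 235 and 218 CPM in general and 171 and 206 CPM in HHH in batch 1, and at 205, 223 and 206 CPM against 165, 167 and 138 CPM in batch 2. The populations did not overlap in either batch, and the log2 fold change was -0.37 (SE 0.08, with edgeR adjusted p = 0.0161). ITGB1, the shared chain of the collagen-binding integrins and the most abundant receptor at 25.6 RPKM, had 0.19 (SE 0.10, with edgeR adjusted p = 0.265). In batch 1 it was at 376 and 372 CPM in general and, below these, 326 and 371 CPM in HHH. In batch 2 HHH was above general, at 431, 427 and 435 CPM against 346, 341 and 300 CPM. Within batch 1, 0 receptors were lower and 0 higher, beside 1.02% and 1.12% of all genes. Within batch 2, 2 were lower and 1 higher, beside 5.65% and 3.83%. With the replicate block, or without HHH replicate 3 of batch 1, 2 receptors were lower, and MRC2, an endocytic collagen receptor, was the other.

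Of 10 turnover genes tested, 3 were higher in HHH and 0 lower over both batches, beside 1.94% and 3.89% of all genes. Within batch 1, 1 was higher and 0 lower, beside 1.12% and 1.02% of all genes. Within batch 2, 1 was higher and 1 lower, beside 3.83% and 5.65%. CTSK, a lysosomal protease that cuts collagen, was at 2.76 and 3.37 CPM in general and 3.94 and 3.89 CPM in HHH in batch 1, and at 4.48, 3.76 and 3.78 CPM against 7.04, 7.05 and 8.57 CPM in batch 2. HHH was above general in both, with a log2 fold change of 0.70 (SE 0.13, with edgeR adjusted p = 0.00445). TIMP4, an inhibitor of matrix metalloproteinases, had 0.67 (SE 0.17, with edgeR adjusted p = 0.0343) and MMP9, a gelatinase, 0.55 (SE 0.13, with edgeR adjusted p = 0.0245). The inhibitor TIMP1, the most abundant of the list at 12.6 RPKM, had 0.05 (SE 0.08, with edgeR adjusted p = 0.772). MMP9 did not pass with the replicate block, and CTSK was the only one left without general replicate 1 or HHH replicate 2 of batch 1, or without HHH replicate 1, HHH replicate 2 or general replicate 3 of batch 2. TIMP4 also did not pass without HHH replicate 3 or general replicate 1 of batch 2, nor MMP9 without general replicate 2 of batch 2.

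Of 10 partners of the basement membrane tested, FRAS1 and NID2 were lower and 0 were higher over both batches, beside 3.89% and 1.94% of all genes. Within batch 1, 0 were lower and 0 higher, beside 1.02% and 1.12% of all genes. Within batch 2, 4 were lower and 0 higher, beside 5.65% and 3.83%. FRAS1, a protein of embryonic epithelial basement membranes, was at 152 and 127 CPM in general and 104 and 126 CPM in HHH in batch 1, and at 276, 294 and 262 CPM against 177, 176 and 139 CPM in batch 2. HHH was below general in both batches, with a log2 fold change of -0.57 (SE 0.11, with edgeR adjusted p = 0.00613). NID2, a nidogen that links laminin to collagen IV, had -0.58 (SE 0.14, with edgeR adjusted p = 0.027) and passed in 2 of the 10 fits that leave out 1 library, those without general replicate 2 or HHH replicate 3 of batch 1. SPARC, a collagen-binding protein and the most abundant of the list at 41.2 RPKM, had -0.05 (SE 0.08, with edgeR adjusted p = 0.769). With the replicate block 4 genes were lower, AGRN and HSPG2 being the added ones, as they were without HHH replicate 3 of batch 1.

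Markers of other cells moved with the populations as follows. Of 5 neural progenitor markers tested, of 8 listed, 4 were lower in HHH and 0 higher, beside 3.89% and 1.94% of all genes, and the summed level of the 8 was 94.1 to 109 CPM in general and 37.6 to 44.5 CPM in HHH in batch 1, and 111 to 150 CPM against 35.5 to 48.5 CPM in batch 2. Most of that sum was OTX2, which pluripotent cells also express. LHX5 was at 5.16 and 2.80 CPM in general and 0.0643 and 0.366 CPM in HHH in batch 1. In batch 2 it was at 5.87, 9.88 and 10.4 CPM in general and 0.103, 0.0519 and 0.141 CPM in HHH. SIX3 was at 0.151 to 0.850 CPM in general and at most 0.0692 CPM in HHH. PAX6, of the same list, was at 0.700 to 1.16 CPM in general and 0.744 to 1.07 CPM in HHH, with overlap in both batches. ZIC1 was at 0.352 to 1.46 CPM in general and 0.0858 to 0.283 CPM in HHH, without overlap in either batch. SOX1 was at 0.347 to 0.579 CPM in general and 0.0865 to 0.155 CPM in HHH in batch 2, and overlapped in batch 1. HES5 and EMX2 were at 0.190 CPM or less in every library. Of 10 fibroblast and mesenchyme markers 5 were tested, ACTA2 was lower and THY1, also a marker of human pluripotent cells and most of the summed level, higher, beside 3.89% and 1.94% of all genes. The summed level was 151 to 176 CPM in general and 212 to 260 CPM in HHH. Of that list DCN, LUM, FAP, TWIST1 and PRRX1 had at most 6 counts in any library. PDGFRB was at 7.90 to 18.4 CPM and PDGFRA at 2.77 to 4.22 CPM, and neither passed. TWIST2, which did not pass, was at 1.87 and 1.33 CPM in HHH and 0.644 and 0.788 CPM in general in batch 1, without overlap. Of 4 cartilage markers 3 were tested and 0 passed over both batches, and the sum of the 4 was 13.7 to 18.2 CPM in general and 11.4 to 13.8 CPM in HHH in batch 1. In batch 2 it was 15.5 to 16.9 CPM in general and 13.6 to 14.4 CPM in HHH, without overlap, and ACAN was lower there by a log2 fold change of -1.11 (SE 0.27, with edgeR adjusted p = 0.0225). Of 5 neural crest markers 4 were tested, SOX10 was lower and FOXD3 higher, beside 3.89% and 1.94% of all genes. Of the 3 endothelial markers tested TEK was lower, beside the same 3.89%, by a log2 fold change of -0.31 (SE 0.08, with edgeR adjusted p = 0.0292). KDR, at 107 to 157 CPM in general and 112 to 151 CPM in HHH, did not pass. Nor did CDH5, at 0.0919 to 0.486 CPM in general and 0.190 to 0.395 CPM in HHH. The median log2 fold change of the 3 was 0.07, with 1 of them below 0. Of 5 endoderm markers only AFP was tested, at 0.317 to 1.82 CPM, and it did not pass. FOXA2, not tested, was at 1.67 and 1.37 CPM in HHH and 0.107 and 0.906 CPM in general in batch 1, and at 0.206 CPM or less in batch 2. The 3 surface ectoderm markers were not tested, and they, GATA4, GATA6 and SOX17 had at most 4 counts. The part of these markers in the collagen result was not tested.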

How the data were processed

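RNA was sequenced from 10 libraries, grouped by population, batch and replicate from their titles. Per the labels, total RNA went through Qiagen kits and a TruSeq RNA library, and the submitters' processing notes name CASAVA 1.8.2, R 3.2.2, limma 3.26.9 and GRCh37. The aligner, counter and strand setting are not given in the sources used here. The authors deposited raw counts per Ensembl gene and a log2 score, TMM-scaled RPKM by its name, in which the batch means agree to 9.2e-14 over 27641 genes, as after subtraction of a batch term.

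Symbols, biotypes and exon lengths came from GENCODE 44 (GRCh38), which matched 88.5% of 55841 identifiers and 94% of tested genes. Genes were kept by filterByExpr (minimum count 10), scaled by TMM (factors 0.832 to 1.18) and tested two-sided with edgeR 4.0.16 in R 4.3.3 by the quasi-likelihood F test, with batch as a term, or as 4 groups for each batch and the interaction, with Benjamini-Hochberg adjustment. The standard error was the log2 fold change divided by the square root of F. The additive fit over both batches was tested on simulated data, drawn with a common spread and without links between replicates. The fits as 4 groups, with the replicate block or with the GC trend removed were not tested in this way. Libraries of 1 group differed by more than counting noise (chi-square 5.77 to 48.7 times its degrees of freedom).

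Same-numbered libraries of a batch deviated together (correlations 0.113, 0.239, 0.143 and 0.113), so a replicate block was an alternative, beside other scalings and filters, DESeq2 1.42.0, limma 3.58.1, a GC trend removed and each library left out. Batch 1 had 2 libraries per population, which fixes its correlations at 1 size. There general replicate 1 with HHH replicate 3 also had 0.113. These 2 libraries were alone in their blocks, so the block compared populations through replicate 2 of batch 1 and the replicates of batch 2. Every collagen gene called over both batches, in a batch or in the interaction was named, with the leader of each class, genes below 1 CPM and, of other lists, the called genes (at most 6) and the most abundant by RPKM. Members and lists were chosen with earlier results of these data known. PECAM1 is not analysed here.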

Additional observations from a re-analysis of the deposited data

Results flagged for a closer look

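The change of COL1A1 differed between the batches, with a log2 fold change in batch 2 minus batch 1 of -1.01. Among the genes around collagen, AGRN, a basement membrane proteoglycan, had a difference of -1.0 (SE 0.18, with edgeR adjusted p = 0.0248), from 0.19 in batch 1 to -0.81 in batch 2. P3H2 had the opposite difference, 0.69 (SE 0.14, with edgeR adjusted p = 0.0389), from -0.89 in batch 1 to -0.20 in batch 2.

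In 3 of 44 groups, each 1 gene in the 5 libraries of 1 population, 1 library stood apart from the others by Dixon's test. The test flags about 1 group in 20 by chance where all 5 libraries share 1 level. Each group pools batch 1 and batch 2, so that rate need not hold and a difference between batches can give a flag. All 3 flags fell on libraries of batch 1. In COL4A6 the gap over the range was 0.927 in the general libraries, where replicate 2 of batch 1 was at 50.8 CPM and the others at 64.6 CPM or more. It was 0.722 in the HHH libraries of COL4A6, where replicate 2 of batch 1 was at 31.6 CPM, and 0.789 in those of COL9A3, where the same library was at 22.6 CPM. COL4A6 and COL9A3 passed over both batches with that HHH library left out.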

How the results depend on the processing

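The 13 collagen genes called over both batches became 11 to 16 with each library left out in turn, and 8 with a fold over 1.5. The count was 15 with the replicate block, 12 of the 13 being shared, 15 with DESeq2, 12 with limma and voom, 14 on the deposited log2 values, where the median of all genes lay at -0.12, 13 with RLE, 12 by library size alone, 18 without a filter, 14 with the GC trend removed and 17 with the GC trend removed and the replicate block. Among these settings, higher genes were COL23A1 with DESeq2 and with the GC trend removed, and COL23A1 and COL6A3 without a filter and with the GC trend removed and the replicate block, and COL23A1 without HHH replicate 2 of batch 1. Without a batch term 1 collagen gene passed, and 0 genes did of the biosynthesis, receptor, turnover and partner lists. For batch 1 the 3 calls became 5 without a filter, 5 with the GC trend removed, 0 in batch 1 alone and 0 to 3 with libraries left out. For batch 2 the 18 became 9 with a fold over 1.5, 14 with the GC trend removed, of which 13 were shared, 23 without a filter, 20 by library size alone, 21 in batch 2 alone, 24 there with the replicate block and 8 to 18 with libraries left out. Added lower genes in these were COL5A3, COL10A1, COL11A1, COL17A1 and COL27A1. For the interaction the 1 call became 3 without a filter, 0 with the GC trend removed and 0 to 1 with libraries left out. With a fold over 1.5, 1 biosynthesis gene, 0 receptors and 0 basement membrane partners passed. With libraries left out, biosynthesis calls ran from 3 to 7, receptor calls from 1 to 2, turnover calls from 1 to 3 and partner calls from 1 to 4. Receptor calls were 2 with the replicate block. On the deposited log2 values turnover calls were 0 and partner calls 4, and partner calls were also 4 without a filter, with the replicate block, and with the GC trend removed and the replicate block. The share of all genes that passed in each alternative fit is not given here, so these counts are not set against it. The cause of these changes was not tested. No called collagen gene turned its direction under any alternative run. COL4A1 was at 14.7 RPKM and COL4A2 at 15.7 RPKM in the deposited values, against 8.22 and 6.85 RPKM by GENCODE exon length, so that the leader of the class changed. Depth limits the 9 genes below 1 CPM, of which 4 were not tested.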
